A study of Mus musculus with 4 samples.

Results

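The genes described here are 10 that encode transcription factors of the pluripotency network: Pou5f1, Nanog, Sox2, Prdm14, Esrrb, Sall4, Klf4, Klf5, Tbx3 and Tfcp2l1. They were selected by their known role, from among 21631 protein-coding genes on the chromosomes of the list, at a time when the positions and strengths of the GATA2 summits were already known. Every summit inside a gene or within 100 kb of it was taken, and 16 of the 995 summits of the list met that rule. Because summit positions entered the choice of genes, all counts and strengths below are descriptions without a test.

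GATA2 occupancy had been measured by CUT&Tag, in which an antibody tethers a transposase that cuts and tags the DNA beside the bound protein. The cells were BVSC+ germ cells from the ovaries of mouse fetuses at E13.5 (mid-gestation, counted in days after the plug), from C57BL/6J females mated with BVSC males. All 4 libraries carry the BVSC genotype, which combines the reporters Blimp1-mVenus and Stella-ECFP, and had trypsin digestion as their labelled treatment. In 2 libraries the anti-GATA2 antibody (Abclonal, A0677) was used, and 2 were input libraries without antibody. The labels do not say whether a library came from pooled fetuses. The deposited values form 1 list pooled over the GATA2 replicates, so no value has a spread between replicates. It holds no expression values, and the germ cell identity could not be checked against marker genes.

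Pluripotency rests on a circuit of transcription factors that activate one another's genes and their own. OCT4 (from Pou5f1), SOX2 and NANOG form its core, while ESRRB, TFCP2L1, TBX3 and the Krüppel-like factors KLF4 and KLF5 maintain the naive state. PRDM14 and SALL4 act both in that circuit and in primordial germ cells, which keep much of the circuit active until female germ cells turn to meiosis. Enhancers of these genes often lie far from the start of transcription. GATA factors recognise short DNA motifs built around the letters GATA, and GATA2 itself is best known from blood stem and progenitor cells.

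Of the 10 genes, 8 had at least 1 summit inside or within 100 kb, and over all protein-coding genes the same rule was met by 14.9%. With only summits of q at most 0.05 (q is the peak caller's adjusted significance) the numbers were 7 of 10 genes and 10.2% of all genes. For 7 of the 10, the gene was itself the nearest protein-coding gene to a summit, against 3.82% of all genes. Nanog, Sox2, Esrrb and Sall4 had 2 or more summits, as had 3.49% of all genes. Klf4 and Tfcp2l1 had none in the window. The median length of the 10 genes was 14.0 kb, against 17.3 kb for all protein-coding genes.

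**Figure D1:**
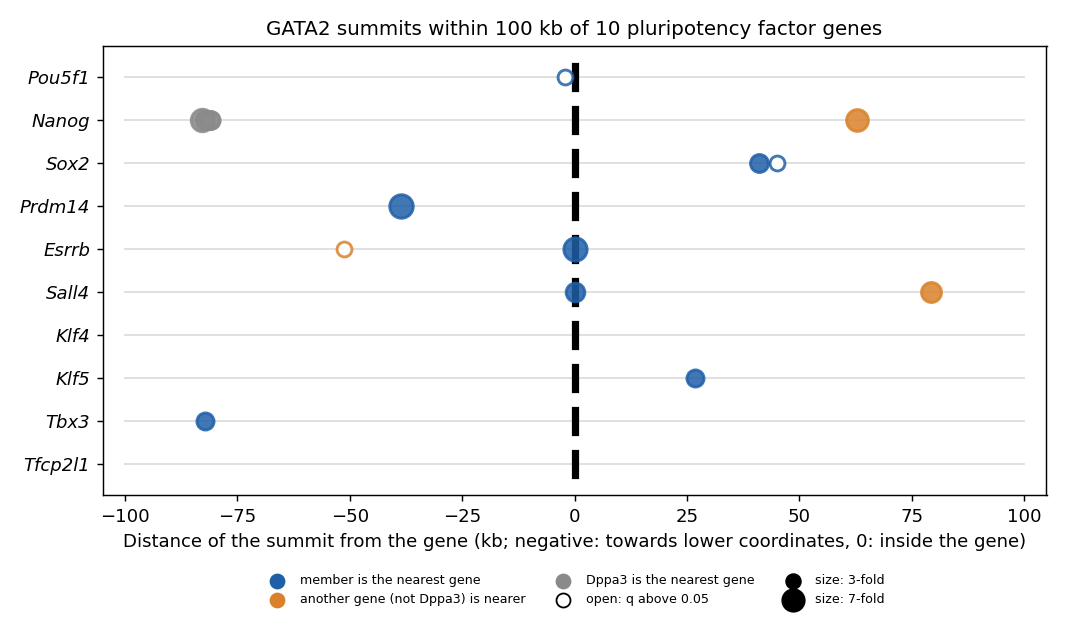
Each row is 1 gene (black bar), and each circle is a summit at its distance from the gene in kb, with circle size showing fold enrichment and open circles a q above 0.05. Summits were spread from inside Esrrb and Sall4 to 82.8 kb from Nanog, and the rows of Klf4 and Tfcp2l1 are empty.

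Distances to gene ends varied. A summit within 1 kb of either end was present at 0 of the 10 genes, against 1.99% of all genes, so the count is near the background. The Pou5f1 summit was 2.1 kb and the inner Sall4 summit 4.4 kb from an end of the gene. A summit inside the gene was present at 2 of the 10, Esrrb and Sall4, against 2.08% of all genes. Of the 16 summits, 5 belong to Dppa3 and are described with Nanog. Over all 16, the median distance to the end of any protein-coding gene was 20.1 kb, 8 were more than 20 kb from one and 3 within 1 kb. Without those at Dppa3 the median over 11 was 38.6 kb, and 0 were within 1 kb. Over the whole list the median was 4.25 kb, 28.0% were more than 20 kb from an end and 36.7% within 1 kb. Taking the summits as independent, the exact 95% interval of 3 in 16 ran from 4.05% to 45.65%. They were not independent, since those 3 lay in 1 peak and the 16 in 13 peaks, so nothing is read from that interval. The Dppa3 summits, which include all 3 within 1 kb, were set apart after the data were seen.

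**Figure D2:**
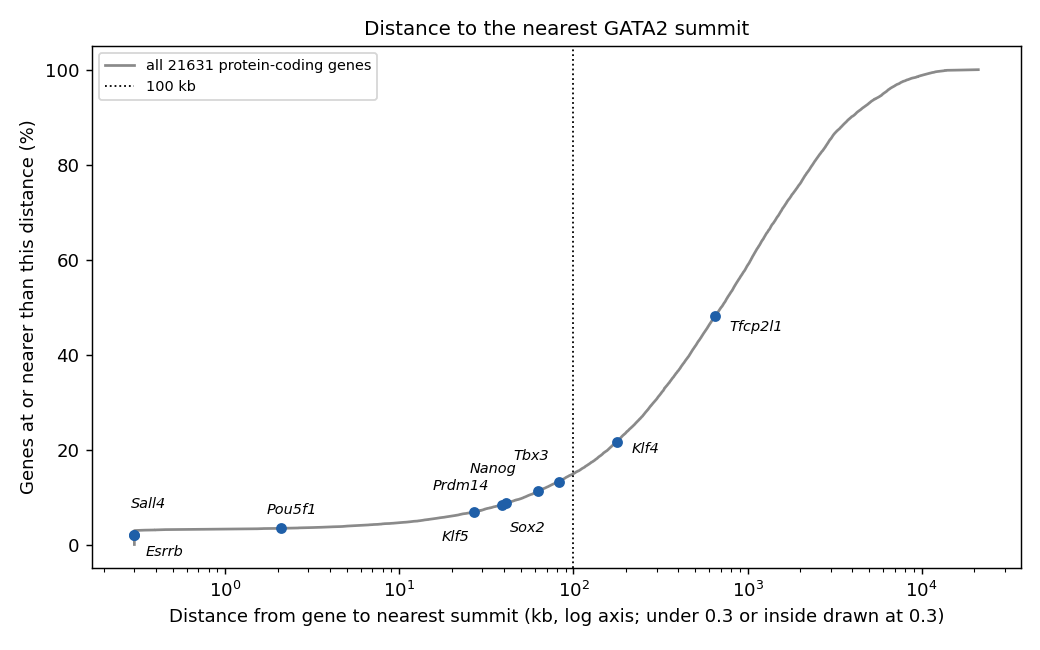
The grey curve gives the percentage of all 21631 protein-coding genes whose nearest summit is at or nearer than the distance on the horizontal log axis (kb), and blue points are the 10 genes. The points of 8 genes lie left of the dotted 100 kb line, with Klf4 at 177.4 kb and Tfcp2l1 at 650.4 kb to its right.

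The distance from a gene to its nearest summit had a median of 39.9 kb over the 10 genes and of 707.3 kb over all protein-coding genes. At the edge of the window, the farthest summits counted were those 82.1 kb from Tbx3 and 82.8 kb from Nanog. The nearest ones left out lay 144.5 kb from Esrrb (3.97-fold, −log10 q 0.30), 150.6 kb from Sox2 (3.43-fold, −log10 q 0.00) and 177.4 kb from Klf4 (3.44-fold, −log10 q 0.30).

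In strength the 16 summits ran from near the bottom of the list to rank 73 of 995 by fold. The fold enrichment, the authors' ratio of signal to local background with 1 added to both, ran from 3.08 to 7.71 with a median of 4.56, and the median of all 995 summits was 4.15. None reached 10-fold, a level met by 33 summits of the list. The q was at most 0.05 at 11 of the 16 (68.8%) and at 67.7% of all summits. Numbers of GATA2 fragments at a summit were inferred from the deposited fold and p. They ran from 6 to 32 near these genes, with a list median of 9, and intervals given with them are 95% Poisson intervals that cover counting error only. Of the 16, 3 stood on 6 fragments, the lowest number in the list, which 12.8% of all summits shared.

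**Figure D3:**
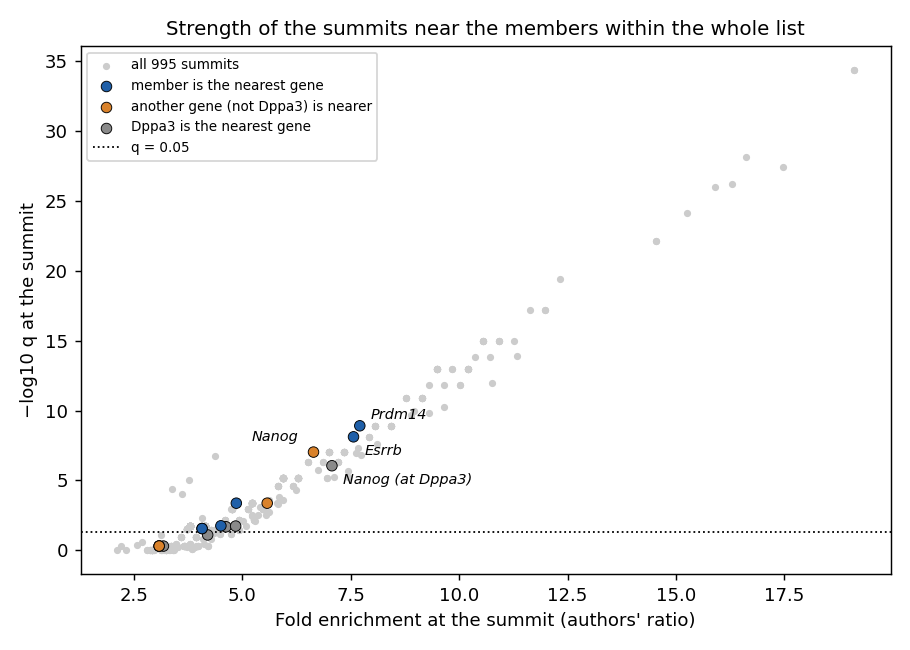
Each point is 1 summit, with the authors' fold enrichment on the horizontal axis and −log10 q on the vertical axis. Coloured points are the 16 summits near the 10 genes, of which Prdm14, Esrrb and both labelled Nanog summits stand highest, all below 8-fold while the list reaches 19.1-fold.

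Pou5f1, the first of the core factor genes, encodes OCT4, the POU factor without which neither embryonic stem cells nor primordial germ cells persist. Its 1 summit lay at position 35503936 of chromosome 17 (chr17:35503880-35504116, GRCm38, 237 bp wide), 2.1 kb upstream of the gene's start. Pou5f1 was the nearest protein-coding gene, with Tcf19 next at 8.8 kb, and 9 protein-coding genes lay within 100 kb of the summit. It was also inside Gm32362, an annotated lncRNA gene that runs on the minus strand from a start 0.295 kb upstream of that of Pou5f1. The summit had a 3.08-fold enrichment on 6 fragments (2.20 to 13.1), where the control background corresponded to 0.161 fragments. A −log10 q of 0.30 left it short of a q of 0.05, and 86.3% of all summits had a higher fold. General knowledge of the gene places its distal enhancer, active in naive cells and the germ line, about 2 kb upstream, and its proximal enhancer, used in the epiblast, about 1 kb upstream. Both lay within 5 kb of the summit, the distal position 0.1 kb and the proximal position 1.1 kb from it. These positions are rounded and do not assign the summit to either element.

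The sequence of the Pou5f1 promoter is shown because this is the member whose start lies nearest to a summit outside it. The 250 bases before the start (RefSeq, GRCm38.p6, chr17:35505782-35506031, plus strand) began 1.67 kb from the end of the GATA2 interval, so no part of them was in a called interval. Capitals mark a match to a GATA motif (AGATAA or AGATAG or TGATAA or TGATAG, on either strand).
Pou5f1: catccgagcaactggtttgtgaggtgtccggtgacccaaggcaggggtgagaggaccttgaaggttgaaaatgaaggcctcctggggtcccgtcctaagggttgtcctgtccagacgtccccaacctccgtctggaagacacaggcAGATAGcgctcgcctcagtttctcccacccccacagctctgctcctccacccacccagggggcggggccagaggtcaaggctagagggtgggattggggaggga
The match begins 104 bases before the start. Such a match was present in 26.5% of 32851 promoter windows of this length, and it describes letters, not a bound site. The sequence under the summit itself was not analysed here.

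Nanog encodes the homeodomain factor that stabilises the naive circuit and is needed for germ cell formation. It had 6 summits within 100 kb and was the nearest protein-coding gene to none of them. Of all 21631 protein-coding genes, 2 had 6 or more, namely Nanog and Prdm1, which had 11. Of the 6 in the Nanog window, 5 stood at Dppa3 in 2 intervals. Dppa3 and Prdm1 are the genes for which the 2 reporters of these mice are named. The summit nearest to Nanog, at 122777367 of chromosome 6 (chr6:122777069-122777717, 649 bp wide), was 62.7 kb beyond the Nanog end, 69.9 kb downstream of its start. It lay inside Slc2a3, the gene of the glucose transporter GLUT3, 25.0 kb from the nearer end of that gene. This summit was 6.64-fold enriched on 16 fragments (9.15 to 26.0) with a −log10 q of 7.02, over a control background at the genome-wide level, and 11.8% of all summits had a higher fold. Known Nanog enhancers are named for positions 45 kb and 5 kb upstream and 60 kb downstream of the start. No summit lay within 5 kb of any of them: the Slc2a3 summit was 9.9 kb beyond the downstream element, and the nearest summit on the upstream side was 36.0 kb from the element at 45 kb.

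The other 5 summits in the Nanog window stood at Dppa3, 81.0 to 82.8 kb upstream of the Nanog start. Dppa3 encodes STELLA, a maternal and germ cell factor, and is the gene for which the Stella-ECFP reporter of these mice is named. These summits fell in 2 intervals (chr6:122624308-122625422 and chr6:122626036-122626569) and spanned 1.84 kb, from 1.8 kb outside Dppa3 to 80 bp inside it. Folds were 7.07, 4.84, 3.18, 4.62 and 4.20 in order of position, and 3 of the 5 had a q at most 0.05. Fragment numbers were 22 to 32, the highest of the 16 summits. The control background was raised at all 5, to the equivalent of 2.26 to 7.94 fragments, against 0.161 at the genome-wide level and 30.0% of all summits with a raised background. The part of the reporter transgene in these summits was not tested. Without them Nanog keeps 1 summit, and the number of genes with a summit stays at 8.

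The Nanog promoter is shown for comparison with that of Pou5f1 (RefSeq, GRCm38.p6, chr6:122707239-122707488, plus strand). It lay 69.6 kb from the nearest interval. Capitals mark TTTGCAT, part of the octamer that POU factors such as OCT4 recognise, which was searched on both strands and was chosen after the sequence had been seen.
Nanog: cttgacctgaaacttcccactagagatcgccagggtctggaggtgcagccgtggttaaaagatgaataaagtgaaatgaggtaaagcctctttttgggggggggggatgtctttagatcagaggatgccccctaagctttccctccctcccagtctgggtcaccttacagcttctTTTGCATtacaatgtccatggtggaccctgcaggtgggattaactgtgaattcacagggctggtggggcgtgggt
The match begins 75 bases before the start. TTTGCAT or its reverse complement was in 4.12% of the 32851 windows. Among the 6 genes with a promoter in the table it was found at 2, Nanog and Sox2, and at Sox2 it begins 99 bases before the start. None of the 4 GATA motifs was in these 250 bases.

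Sox2 encodes the HMG-box partner of OCT4. Its 2 summits lay 4.0 kb apart on the downstream side, at 34693546 and 34697542 of chromosome 3 (chr3:34693452-34693659 and chr3:34697449-34697813), 43.6 and 47.5 kb from the start. Sox2 was the only protein-coding gene within 100 kb of either, and the next, Dnajc19, was 612.2 kb from the nearer summit. The nearer boundary of the lncRNA gene Gm34941 lay 0.6 kb from the first summit, and that of Gm3143, another lncRNA gene, 2.1 kb from the second. Whether these boundaries are starts or ends of transcription was not determined. The first summit was 4.50-fold enriched on 10 fragments (4.80 to 18.4; −log10 q 1.75). The second stood at 3.08-fold on 6 fragments (2.20 to 13.1; −log10 q 0.30), and the intervals of the fragment numbers overlap. Known Sox2 elements lie about 4 kb on each side of the start (SRR1 and SRR2) and, as the Sox2 control region of embryonic stem cells, about 100 to 110 kb downstream. The summits were 39.6 kb or more from SRR1 and SRR2. The summit nearest to the control region lay outside the window, 43.1 kb beyond it.

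Of the factors shared with the germ line, Prdm14 had the summit of highest fold among the 16. PRDM14, a PR domain factor, represses differentiation and DNA methylation genes and is needed for primordial germ cell specification. The summit at 13074797 of chromosome 1 (chr1:13074537-13074987, 451 bp wide) lay 38.6 kb from the gene on its lower-coordinate side. It stood at 7.71-fold on 19 fragments (11.4 to 29.7; −log10 q 8.91), and 7.24% of all summits had a higher fold. The control background was at the genome-wide level of 0.161 fragments. Prdm14 was the nearest of 3 protein-coding genes within 100 kb, ahead of Ncoa2 at 64.3 kb. No annotated gene of any type contained the summit, and the nearest gene end of any type, of the pseudogene Gm5250, was 12.3 kb away. No other summit lay within 6024.5 kb of Prdm14.

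Sall4 encodes a zinc finger factor of stem cells and germ cells. It had a summit inside the gene, at 168762760 of chromosome 2 (chr2:168762402-168763020, 619 bp wide), 4.4 kb from its higher-coordinate end. That summit was 4.86-fold enriched on 11 fragments (5.49 to 19.7; −log10 q 3.37). A second, at 168846571 (chr2:168846382-168846803), stood 79.4 kb from the gene on its higher-coordinate side with 5.57-fold on 13 fragments (6.92 to 22.2; −log10 q 3.37). For that one another zinc finger gene, Zfp64, was nearer at 46.8 kb. The 2 fragment numbers do not differ beyond their intervals. Exons and introns were not given in the gene table.

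Among the naive factors, the summit of highest deposited fold was at Esrrb. ESRRB is an orphan nuclear receptor that works beside NANOG in holding the naive state. The summit at 86473759 of chromosome 12 (chr12:86473568-86473985, 418 bp wide) lay inside the gene, which spans 160.5 kb, and 47.9 kb from its nearer end. It was 112.6 kb downstream of the first annotated start and 52.1 kb downstream of the second. Enrichment was 7.56-fold on 19 fragments (11.4 to 29.7; −log10 q 8.12), with 8.64% of all summits higher. No other protein-coding gene lay within 100 kb of it. The control background was slightly above the genome-wide level, at 0.215 fragments. A second summit lay 51.3 kb upstream, at 86309837 (chr12:86309738-86310031), inside the lncRNA gene Gm32666, where Gpatch2l was nearer at 15.2 kb. It stood at 3.08-fold on 6 fragments (2.20 to 13.1; −log10 q 0.30).

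Esrrb has 2 annotated starts in the promoter table, and the windows before them differed in their letters. The 250 bases before the second start are shown because they hold the GATA match and the first do not (RefSeq, GRCm38.p6, chr12:86421394-86421643, plus strand, capitals as for Pou5f1).
Esrrb: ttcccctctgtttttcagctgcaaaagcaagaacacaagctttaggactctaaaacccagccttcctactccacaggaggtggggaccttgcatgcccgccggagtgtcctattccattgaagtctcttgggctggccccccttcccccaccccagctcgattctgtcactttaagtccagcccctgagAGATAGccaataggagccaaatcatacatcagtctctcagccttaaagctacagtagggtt
The match begins 61 bases before that start, and the nearest interval was 51.9 kb away. The table held 6 of the 10 genes with 9 starts, and Prdm14, Sall4, Klf5 and Tbx3 were not matched. A GATA match was found before 3 of the 9 starts (both of Pou5f1 and 1 of Esrrb), near the 26.5% of all windows, and not before those of Nanog, Sox2, Klf4 and Tfcp2l1. None of the 9 windows overlapped a GATA2 interval, and apart from those of Pou5f1 they were 43.5 kb or more from one.

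Klf5 and Tbx3 each had 1 summit of the same deposited fold. KLF5 is a Krüppel-like factor that supports self-renewal, and its summit at 99340281 of chromosome 14 (chr14:99340155-99340365, 211 bp wide) lay 26.9 kb from the gene on its higher-coordinate side, with Pibf1 next at 85.4 kb. TBX3, a T-box factor, had a summit at 119588407 of chromosome 5 (chr5:119588243-119588512, 270 bp wide), 82.1 kb from the gene on its lower-coordinate side and with no other protein-coding gene within 100 kb. Both were 4.07-fold enriched on 9 fragments (4.12 to 17.1; −log10 q 1.55) over a control level of 0.215 fragments, and 56.3% of all summits had a higher fold. Fold, fragment number and control level were all equal at these 2 summits.

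Klf4 and Tfcp2l1 had no summit in the window. KLF4, another Krüppel-like factor, is one of the reprogramming factors. The summit nearest to its gene was 177.4 kb away at 55349764 of chromosome 4, with 3.44-fold on 7 fragments (2.81 to 14.4) and a −log10 q of 0.30. This summit was 278 bp outside Rad23b, a DNA repair gene. It lay 182.7 kb downstream of the Klf4 start, 114.7 kb beyond the known enhancer cluster at about 54 to 68 kb. TFCP2L1, a CP2 family factor of the naive state, had its nearest summit 650.4 kb away at 119335615 of chromosome 1 (4.60-fold on 11 fragments; −log10 q 2.16), with Inhbb as the nearest gene. No summit of the list stood on fewer than 6 fragments, and occupancy below that level at these 2 genes would not appear in it.

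**Figure D4:**
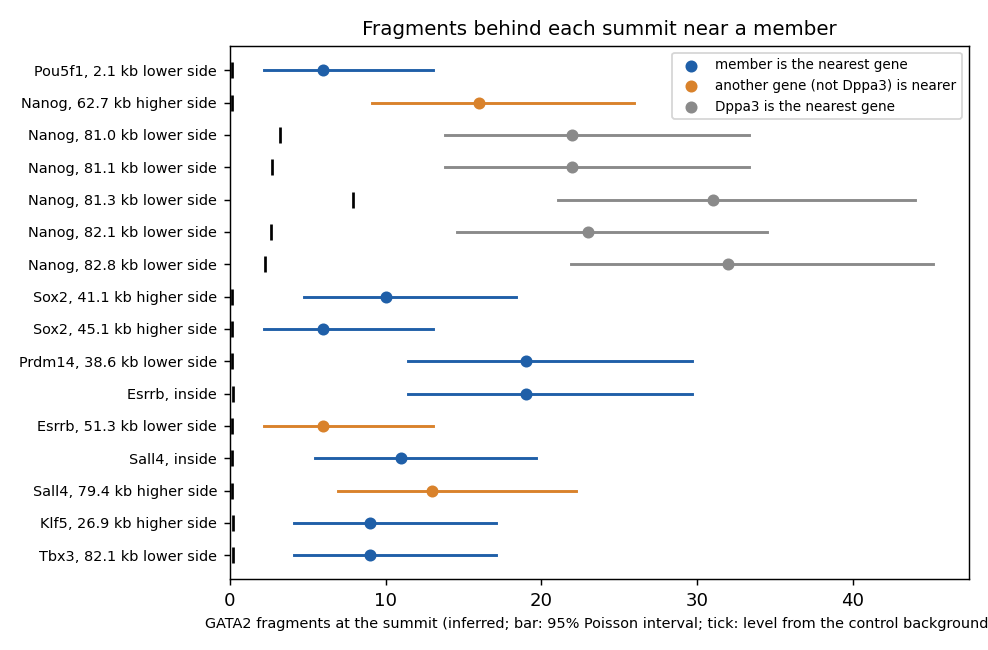
Points give the inferred number of GATA2 fragments at each of the 16 summits, bars the 95% Poisson interval and black ticks the number that the control background corresponds to; labels give the gene, the distance and the side by coordinate. The Prdm14 and Esrrb summits stand on 19 fragments with ticks under 0.3, while the 5 summits at Dppa3 stand on 22 to 32 with ticks from 2.26 to 7.94.

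The plot of fragments shows that the intervals of most summits overlap. The interval of 19 fragments at Prdm14 and Esrrb (11.4 to 29.7) overlapped those of 9 at Klf5 and Tbx3 (4.12 to 17.1), and that of 6 at Pou5f1 reached 13.1. Overlapping intervals do not show that fragment numbers are equal. Folds set in order here are those deposited, and that order was not tested against counting error. The control level was at the genome-wide value at 8 of the 11 summits outside Dppa3, and at Esrrb, Klf5 and Tbx3 it was 0.215 fragments.

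Other genes of the network were taken as 3 lists, also compiled with earlier results of these data known. Of 11 further naive pluripotency genes (Klf2, Zfp42, Nr5a2, Nr0b1, Stat3, Gbx2, Tcl1, Fgf4, Dppa4, Tdgf1 and Utf1), 0 had a summit within 100 kb. The nearest were those of Tdgf1, a Nodal co-receptor gene, at 141.2 kb, Klf2 at 158.0 kb and Tcl1 at 184.2 kb. Of 12 formative and primed genes, 4 had a summit. The ETS factor gene Etv5 had 3, the strongest inside it at 15.2-fold on 41 fragments (−log10 q 24.2). Zic2 and Zic5, neighbouring zinc finger genes, shared 1 summit inside Pcca, 52.2 and 66.8 kb away, at 4.93-fold (−log10 q 2.16). Lef1 had 1 inside the gene, at 3.44-fold and short of a q of 0.05. Of 8 germ cell determinants, 4 had a summit. Prdm1, the gene of BLIMP1, had 11 with a highest fold of 17.5, and the control background was raised at 8 of them, up to the equivalent of 3.22 fragments. It is the gene for which the Blimp1-mVenus reporter is named, and the part of that transgene was not tested. Dppa3 had the 5 described above, and Tfap2a, an AP-2 factor gene, had 2, the strongest 8.89-fold on 40 fragments at 63.9 kb. That fold is lower than at Etv5 on 41 fragments, so the control background at this Tfap2a summit was raised too. Lin28a had 1 at 71.3 kb (3.92-fold, −log10 q 0.91) for which Hmgn2 was nearer. Over the 31 genes the count was 8 with a summit and 6 with one of q at most 0.05, beside 14.9% and 10.2% of all protein-coding genes.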

How the data were processed

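The data were 1 peak list in narrowPeak layout for 4 CUT&Tag libraries (2 with a GATA2 antibody, 2 input), grouped by their titles. The submitters' processing notes list MACS2 2.2.6, bedtools 2.29.2, Bowtie2 2.3.5.1, Trimmomatic 0.39, Picard 2.23.0 and SAMtools, and the build GRCm38 (mm10). Settings and control libraries are not stated there. Since the peaks are named as combined, the authors were taken to have pooled both GATA2 replicates. Per peak, the authors deposited a fold (a ratio of scaled signal to local background, 1 being added to each), a −log10 p, a −log10 q and a display score, which equalled 10 times −log10 p without its decimals for each of the 995 summits.

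Summit positions are 1-based. Genes came from a RefSeq table of GRCm38.p6, and distance is 0 inside a gene and otherwise runs to its nearer end. Strand was known for the 6 members, and for Gm32362, found in the RefSeq promoter table. Fragment numbers were solved from fold and p together, with a fitted scale of 0.378 and a genome-wide control background of 0.0608. All 995 summits were solved within 0.002 of the deposited −log10 p. At 10 of them another fragment number also met that limit. On 1000 simulated summits the fragment number was recovered in 1000. They were made with the same formula as the solution, so this checks the calculation only. Their control backgrounds stayed below those of the Dppa3 summits, the highest at Prdm1 and that of the strongest Tfap2a summit. Fragment numbers on such backgrounds were not covered by the simulation. A control background counted as raised when more than 1% above the genome-wide level. These numbers cover counting error only, and PCR copies left in the data would count as fragments.

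The named genes are all 10 members with their summits, the genes nearer to those summits, and each listed network gene with a summit of q at most 0.05. Others of those lists were named after their values were seen. The result for 1 gene chosen at the planning stage for these lists is not reported here. Members and lists were chosen with earlier results of these data known. Enhancer positions are rounded background knowledge, compared within 5 kb for Pou5f1, Nanog, Sox2 and Klf4 only. For the other members no known enhancer was compared. No genome sequence was used, and the planned motif search at summits was not run. Python 3.11.15 and scipy 1.17.1 were used.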

Additional observations from a re-analysis of the deposited data

How the results depend on the processing

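The number of genes with a summit (8 as reported) was within 1.5 times of that under 7 of 9 alternatives. It fell to 3 with a window of 20 kb (Pou5f1, Esrrb and Sall4) and to 3 at a −log10 q of at least 5 (Nanog, Prdm14 and Esrrb). The number of summits near them, 16 as reported, was 3 at 20 kb, 7 at 50 kb, 4 at a −log10 q of at least 5 and 8 when only the nearest gene counted. The share of all protein-coding genes with a summit, 14.9% as reported, moved over 1.5 times under 5 of 9: 5.98% at 20 kb, 9.68% at 50 kb, 23.5% at 200 kb, 3.1% at a −log10 q of at least 5 and 3.82% with the nearest gene only. Shorter windows and stricter thresholds leave fewer summits to count. With q at most 0.05, Pou5f1 lost its summit, and with 200 kb Klf4 gained one. The setting without the Dppa3 summits was chosen after seeing the data and left 8 genes and 11 summits. Leaving out a replicate could not be run on a pooled list, and the motif search around summits with other widths was not run. No paired analysis was possible because the list gives 1 pooled value per summit. The weakest summits stood on 6 fragments, and depth was not varied.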

Other observations

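The 2 summits nearest to Klf4 both lay on its lower-coordinate side and nearer to other genes. The second, beyond that at Rad23b, lay 594.4 kb from Klf4, at 54932741 of chromosome 4, and 11.8 kb from Zfp462, a zinc finger gene with a described role in embryonic stem cells. It was 9.13-fold enriched on 23 fragments with a −log10 q of 10.9, the 47th highest fold of the list. Zfp462 was in none of the lists above and was singled out after its values were seen.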
